A study of Mus musculus with 7 samples.

Results

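The transcripts of 10 genes of blood clotting were followed in liver: the 3 fibrinogen chains (Fga, Fgb and Fgg), the coagulation factor genes F2, F5, F7, F9 and F11, the plasminogen gene Plg and the kininogen gene Kng1. The members were taken by gene symbol from a table of 54532 genes, where each was listed once, and all 10 passed the filter of a mean of at least 1 FPKM that left 11394 genes for testing. FPKM is a count of sequenced fragments scaled to the length of the gene and to a library total. RNA came from livers of old C57BL/6 mice in 7 libraries, 3 from animals on a standard diet following supplementation with MDL-800 and 4 from control animals on the standard diet. MDL-800 is a compound that activates SIRT6, a deacetylase that uses NAD, and the comparison addresses how the livers of treated animals differed from those of controls. The labels used here give no dose, duration, age in numbers or sex, and they do not say whether the libraries are of different animals. The p-values therefore weigh differences only against the spread among these 7 libraries, which may be technical in part. Reads of Y-linked genes, given below, were present in some libraries of each group and absent from others. The libraries of a group therefore do not all come from 1 animal.

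Clotting factors are plasma proteins that hepatocytes make and secrete. In the cascade, factor VII bound to tissue factor activates factors IX and X, and factor XI on the contact side activates factor IX. Factor V is the cofactor that speeds the release of thrombin from prothrombin (F2), and thrombin cuts fibrinogen so that it polymerizes to fibrin. Plasminogen, once activated to plasmin, digests fibrin, and kininogen is the source of bradykinin and carries factor XI and prekallikrein in plasma. Fibrinogen is also an acute phase protein: interleukin-6, acting through STAT3 and C/EBP factors on hepatocytes, raises the transcription of its chains together.

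The 3 fibrinogen genes lie side by side on mouse chromosome 3, from 83007724 to 83049863 (GRCm38), a span of 42.1 kb. Their promoters are shown because the chains are the members known for a shared response to interleukin-6. Each line gives the 250 bases before the RefSeq start of the gene (GRCm38.p6), 5′ to 3′ on the gene's own strand: chr3:83025903-83026152 on the plus strand for Fga, chr3:83049864-83050113 on the minus strand for Fgb, and chr3:83007474-83007723 on the plus strand for Fgg. Capitals mark matches on either strand to any of 5 motifs. CTGGGA is the core of the interleukin-6 response element of acute phase genes, TTCNNNGAA the pattern bound by STAT factors and TTGCNNAA that bound by C/EBP factors. GTTAAT is one arm of the HNF1 site. The TATA box was searched as TATAAA.
Fga: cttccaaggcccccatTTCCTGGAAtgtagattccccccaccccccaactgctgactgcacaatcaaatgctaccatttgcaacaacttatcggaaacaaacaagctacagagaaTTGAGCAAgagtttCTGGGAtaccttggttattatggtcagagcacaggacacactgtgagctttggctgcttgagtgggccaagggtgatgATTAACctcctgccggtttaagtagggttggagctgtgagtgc
Fgb: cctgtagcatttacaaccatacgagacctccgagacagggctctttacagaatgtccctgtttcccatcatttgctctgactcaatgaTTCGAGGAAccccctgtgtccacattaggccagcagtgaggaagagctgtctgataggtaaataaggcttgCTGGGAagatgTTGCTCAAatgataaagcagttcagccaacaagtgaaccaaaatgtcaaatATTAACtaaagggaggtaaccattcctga
Fgg: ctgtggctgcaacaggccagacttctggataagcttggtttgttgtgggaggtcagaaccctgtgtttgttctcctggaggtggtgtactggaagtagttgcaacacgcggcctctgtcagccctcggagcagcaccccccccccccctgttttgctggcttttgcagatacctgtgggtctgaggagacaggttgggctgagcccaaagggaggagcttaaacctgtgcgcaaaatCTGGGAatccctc
The table places the start of Fga farther upstream than RefSeq does, so the last 77 bases of its window lie inside the gene as the table gives it. CTGGGA stood in all 3 windows, starting 121 bases before the RefSeq start of Fga, 91 before Fgb and 13 before Fgg, and 27.0% of 32851 mouse promoter windows of that length held it. Fga and Fgb also each held a TTCNNNGAA (in 7.02% of all windows), a TTGCNNAA (9.56%) and a GTTAAT (6.43%), and Fgg held none of these. Promoters of 8 of the 10 members were in the sequence table, and none of the 8 held TATAAA, which 12.4% of all windows held. Of the other 5, F9 held CTGGGA, TTCNNNGAA and TTGCNNAA, with the CTGGGA and the TTCNNNGAA overlapping, F11 held TTGCNNAA, and F2, F5 and F7 held none. A match is a letter pattern, and binding at these sites was not measured.

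The libraries were sequenced to 17600066 to 19920469 reads, as recovered from the FPKM steps. MDL-800 2 and control 1 held reads of Y-linked genes (3514 and 2173 reads of Ddx3y, Kdm5d, Eif2s3y and Uty) and the other 5 libraries held 0. Of those 5, called Y-negative here, control 3 also had 0 reads of Xist, the X-inactivation RNA, where the other 4 had 15495 to 21104. Hepatocyte markers were abundant throughout (Alb at 35737 to 62511 FPKM and Apoa1 at 5890.4 to 11441 FPKM). Control 2 stood apart in the summed markers of blood and macrophages, though not in every marker of those lists. Its summed red blood cell markers reached 813.0 FPKM, where the MDL-800 libraries had 126.2 to 178.6 FPKM and the other 3 controls 139.2 to 198.5 FPKM. Its neutrophil markers reached 300.8 FPKM (12.01 to 81.2 FPKM in MDL-800 and 24.7 to 46.3 FPKM in the other controls) and its platelet markers 68.1 FPKM (2.97 to 10.2 and 3.86 to 13.2 FPKM). Its Kupffer cell markers reached 549.3 FPKM (84.0 to 254.3 FPKM in MDL-800 and 74.1 to 223.5 FPKM in the other controls). Of the 6 platelet markers Gp1bb was at 0 in all libraries. Endothelial markers summed to 24.1 to 32.4 FPKM in MDL-800 and 9.07 to 34.9 FPKM in control, and stellate cell markers to 38.8 to 64.9 and 18.9 to 54.8 FPKM, with control 4 the lowest for both. Control 2 was also the lowest library for 5 of the 10 members and control 4 the highest for Kng1, and the part of cell makeup in the members' values was not tested. In bulk tissue, fewer hepatocytes and less RNA per hepatocyte cannot be told apart.

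No member differed between MDL-800 and control livers by limma. The log2 fold change of 9 of the 10 was below 0, with a median of -0.24, while 45.8% of all 11394 genes were below 0 with a median of 0.021. The members were chosen with earlier results of these data known. They also varied together, with control 3 the highest library for 8 of the 10. Their counts by direction and by overlap are therefore a description, not independent evidence. F7, Kng1 and the fibrinogen chains had the values farthest below 0, and F2, F5, F9 and Plg stood near 0. At an adjusted p under 0.05 the test called 0 of the 10 members and 0.0% of all genes, and at an unadjusted p under 0.05 it called 0 of the 10 and 4.85% (553) of all genes. That count was 274 without MDL-800 3 and 948 without control 1. The lowest adjusted p of a member was 0.95 and that of any gene 0.333. Limma voom, run on the recovered reads, called 0.0% of genes at the adjusted threshold and 5.82% (663) at an unadjusted p under 0.05. The groups did not overlap in FPKM for 2 of the 10 members, F7 and Kng1, both lower in MDL-800, where 2.42% of all genes were lower without overlap.

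**Figure D1:**
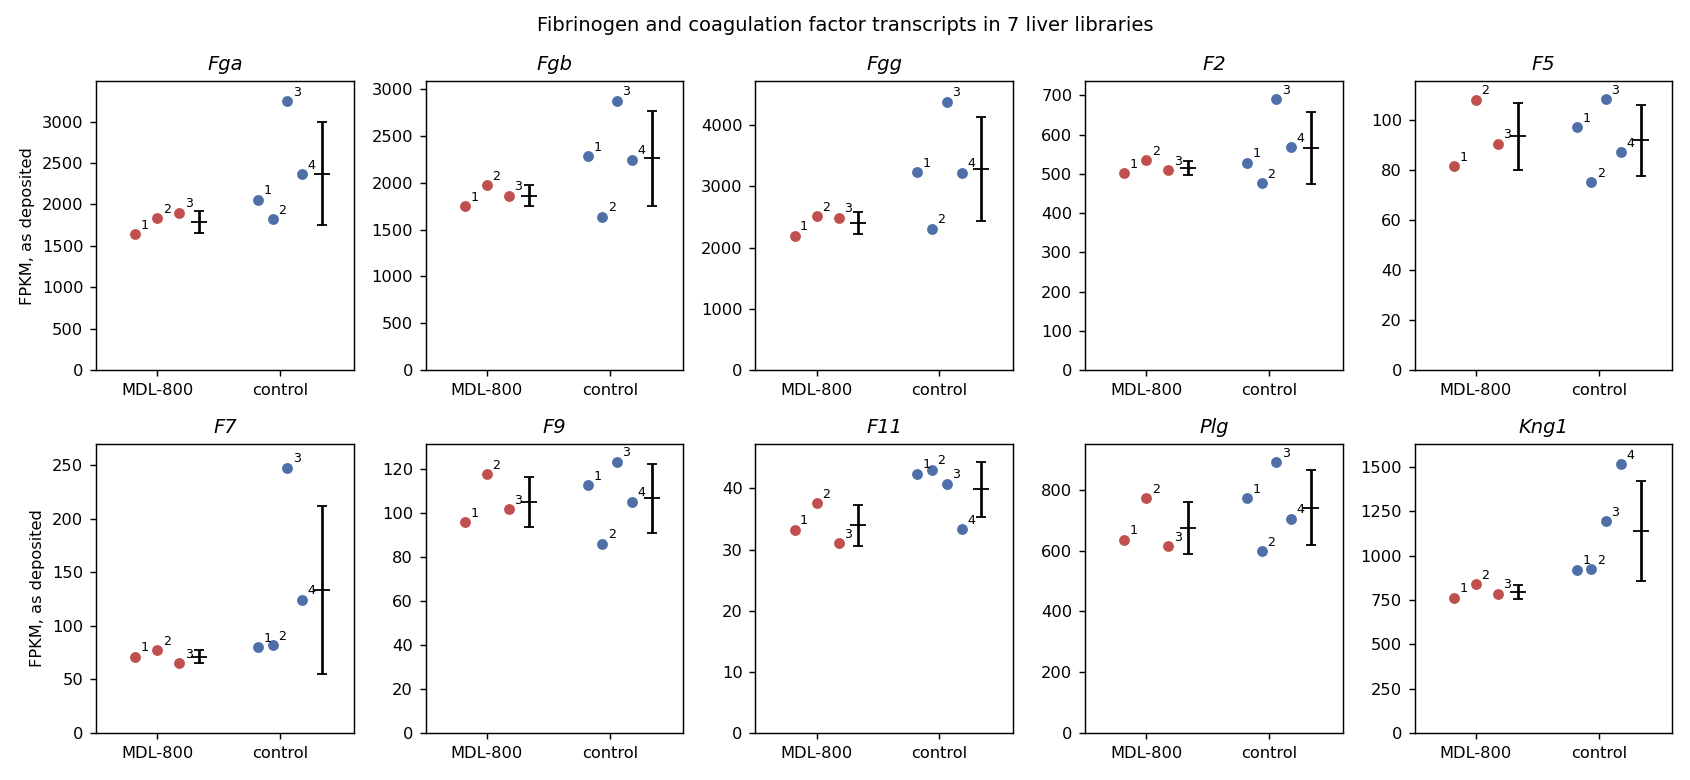
Deposited FPKM of the 10 genes in each library (points, numbered by replicate), MDL-800 left and control right, with the mean and SD of each group (black bar) and axes from 0. The 3 MDL-800 libraries lie close together for the fibrinogen chains, F7 and Kng1, while control 3 is the highest library for 8 of the 10 genes.

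The fibrinogen chains were the most abundant members. Fgg, the gamma chain (chromosome 3, 83007724 to 83015049, plus strand), was at 2192, 2515 and 2485 FPKM in MDL-800 livers 1 to 3, against 3225, 2307, 4380 and 3221 FPKM in control livers 1 to 4. Control 2 lay among the MDL-800 libraries and the other 3 controls above all of them. The mean of Fgg was 2397 ± 178 FPKM in MDL-800 (SD, n = 3) and 3283 ± 849 FPKM in control (SD, n = 4), and its log2 fold change was -0.42 ± 0.23 (standard error, limma, 95% interval from -0.96 to 0.12). Fga, the alpha chain, which carries a peptide that thrombin removes to start polymerization (83026076 to 83033627, plus strand), was at 1643, 1836 and 1899 FPKM in MDL-800 and at 2059.6, 1822, 3243 and 2365 FPKM in control. Here too control 2 alone lay within the MDL-800 range, and the log2 fold change was -0.37 with a standard error of 0.22 (interval from -0.89 to 0.14). Fgb, the beta chain (83040141 to 83049863, minus strand), was at 1746, 1971 and 1859 FPKM in MDL-800 and at 2282, 1636, 2874 and 2243 FPKM in control. Control 2 was the lowest of the 7 libraries for Fgb, and the log2 fold change was -0.25 with a standard error of 0.21. Control 3 was the highest for all 3 chains, and without it the values were -0.27 for Fgg, -0.21 for Fga and -0.13 for Fgb. Without control 2 they were -0.58, -0.49 and -0.40, with unadjusted limma p-values of 0.017, 0.0534 and 0.0431 and an adjusted p of 0.957 for each. Within the 5 Y-negative libraries, which are MDL-800 1 and 3 against control 2, 3 and 4, they were -0.45 for Fgg, -0.45 for Fga and -0.28 for Fgb. Leaving out control 3 from these as well, which keeps only the 4 libraries with Xist reads, gave -0.22 for Fgg, -0.23 for Fga and -0.089 for Fgb. A lincRNA gene, Gm30097, overlaps Fgg on the opposite strand, and the library chemistry does not mark strand, so reads of the 2 cannot be told apart.

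The ratio of one chain to another within a library does not depend on how the library was scaled. The FPKM of Fgg was 1.26, 1.28 and 1.34 times that of Fgb in the MDL-800 livers, against 1.41, 1.41, 1.52 and 1.44 times in the control livers. All 3 MDL-800 libraries lay below all 4 controls, including control 2, and the mean difference was -0.17 on the log2 scale (0.37 ± 0.047 in MDL-800, SD, n = 3, and 0.53 ± 0.052 in control, SD, n = 4). Set against Fgb in the same way, 34 of 11393 other genes (0.298%) had a ratio lower in MDL-800 without overlap, and 1791 (15.7%) a higher one. Fgb had a log2 fold change of -0.25 itself, so division by it moves ratios up in MDL-800. These shares therefore depend on the choice of Fgb and do not measure how rare such a separation is. The Fga to Fgb ratio was 0.941, 0.931 and 1.02 in MDL-800 and 0.903, 1.11, 1.13 and 1.05 in control, so the groups overlapped through control 1. The Fga to Fgg ratio was 0.750, 0.730 and 0.764 in MDL-800 and 0.639, 0.790, 0.741 and 0.734 in control and overlapped as well. These 3 ratios are given as a description with no test. Their size depends on the gene lengths of the table, 3010 bases for Fga, 3810 for Fgb and 2093 for Fgg, which cancel between libraries.

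**Figure D2:**
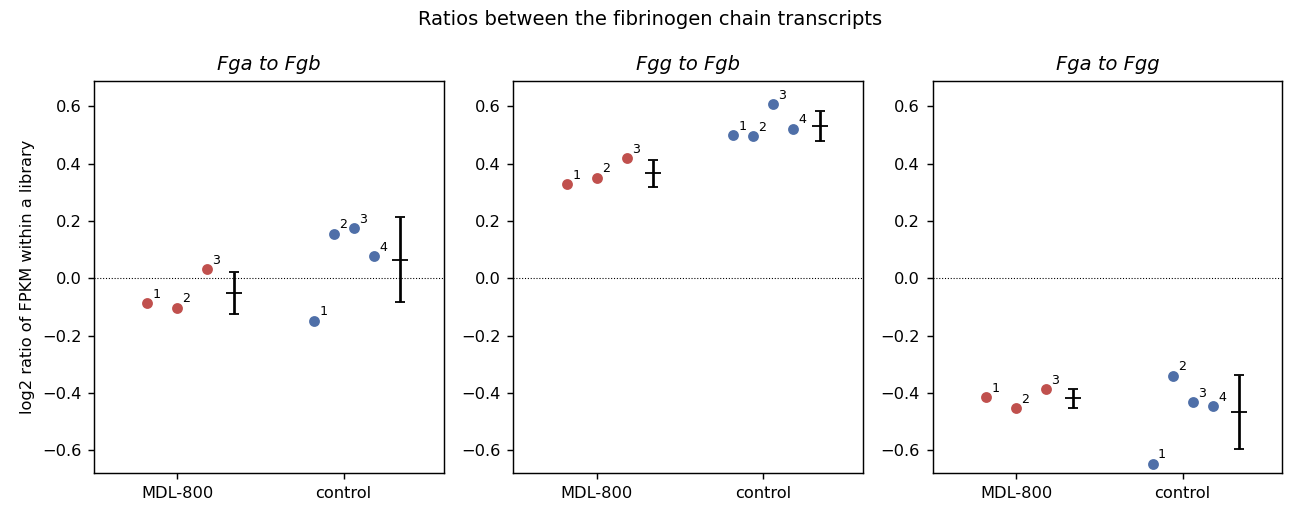
Log2 ratio of FPKM between fibrinogen chains within each library (points, numbered by replicate), MDL-800 left and control right, with the mean and SD of each group (black bar). The Fgg to Fgb ratio of each MDL-800 library lies below that of each control library, while the groups overlap for the other 2 ratios.

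F7 encodes the protease that starts clotting with tissue factor (chromosome 8, 13026034 to 13035809, plus strand). It was at 71.0, 77.3 and 65.2 FPKM in MDL-800, against 80.1, 82.1, 247.5 and 124.4 FPKM in control. The MDL-800 libraries lay below every control, but controls 1 and 2 were close to them, and the highest control was 3.09 times the lowest. F7 averaged 71.1 ± 6.06 FPKM in MDL-800 (SD, n = 3) and 133.5 ± 78.7 FPKM in control (SD, n = 4), with a log2 fold change of -0.74, a standard error of 0.39 and an interval from -1.67 to 0.18. Without control 3 its fold change was -0.39, in the Y-negative libraries alone -0.99, and in the 4 libraries with Xist reads -0.56. F10, the neighbouring gene that encodes the factor activated by factor VII, was at 207.1 ± 9.61 FPKM in MDL-800 (SD, n = 3) and 265.6 ± 70.6 FPKM in control (SD, n = 4), a log2 fold change of -0.32. F11, the contact-side activator of factor IX (chromosome 8, 45241174 to 45262031, minus strand), was the least abundant member. It was at 33.3, 37.6 and 31.1 FPKM in MDL-800 and at 42.4, 43.1, 40.8 and 33.3 FPKM in control, where control 4 lay within the MDL-800 range and the other 3 controls above it. Its log2 fold change was -0.22 with a standard error of 0.14, and it was -0.30 without control 4 and -0.16 without MDL-800 3. F9, the factor IX gene (chromosome X, 59999464 to 60030759, plus strand), was at 95.7, 117.7 and 101.8 FPKM in MDL-800 and at 112.6, 86.0, 123.4 and 105.2 FPKM in control. The F9 groups overlapped over nearly their whole range, with a log2 fold change of -0.016 (interval from -0.40 to 0.37) that changed sign under 6 of 18 alternatives.

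F2, the prothrombin gene (chromosome 2, 91625320 to 91636414, minus strand), was at 502.1, 534.9 and 509.2 FPKM in MDL-800 and at 528.5, 476.2, 690.5 and 568.2 FPKM in control. The 3 MDL-800 values lay inside the control range, and the log2 fold change was -0.12 with a standard error of 0.16. It was -0.021 without control 3, -0.20 without control 2 and -0.040 with quantile normalization. F5, the cofactor gene (chromosome 1, 164151838 to 164220277, plus strand), was at 81.6, 108.1 and 90.5 FPKM in MDL-800 and at 97.1, 75.1, 108.3 and 87.0 FPKM in control. It was the only member above 0, at 0.026 with an interval from -0.38 to 0.43, and its sign changed under 5 of 18 alternatives. A lincRNA gene and a processed pseudogene overlap F5. Plg, the plasminogen gene (chromosome 17, 12378608 to 12419385, plus strand), was at 635.4, 772.4 and 613.7 FPKM in MDL-800 and at 772.8, 597.0, 891.0 and 705.4 FPKM in control. Its groups overlapped, with a log2 fold change of -0.13 and an interval from -0.56 to 0.30, and quantile normalization turned it to 0.0051. Without MDL-800 2 it was -0.23, and without control 3 it was -0.037. The transporter gene Slc22a3 overlaps Plg on the opposite strand.

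Kng1 (chromosome 16, 23057865 to 23082078, plus strand) had the lowest p of the members. It was at 763.2, 839.9 and 784.7 FPKM in MDL-800, against 921.0, 924.8, 1194 and 1516 FPKM in control. Every MDL-800 library lay below every control, and control 4 was the highest. Kng1 averaged 796.0 ± 39.6 FPKM in MDL-800 (SD, n = 3) and 1139 ± 282 FPKM in control (SD, n = 4), with a log2 fold change of -0.49 and a standard error of 0.21 (interval from -0.98 to 0.0066, limma unadjusted p = 0.0524, adjusted p = 0.95). It was -0.34 without control 4 and -0.62 within the Y-negative libraries. Over all alternatives its unadjusted p went down to 0.0319, without control 2, and its adjusted p to 0.583. Kng2, the second kininogen gene in mouse, lies near Kng1 on the minus strand. It was at 158.4 ± 15.1 FPKM in MDL-800 (SD, n = 3) and 192.3 ± 38.2 FPKM in control (SD, n = 4), a log2 fold change of -0.26 with overlapping groups. The sources used here do not say how reads shared by the 2 kininogen genes were assigned, so the split between them is uncertain.

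By mean FPKM over the 7 libraries the order was Fgg (2904), Fga (2124), Fgb (2087), Kng1 (992), Plg (713), F2 (544), F7 (107), F9 (106), F5 (92.5) and F11 (37.4). Fgg ranked 21 among all 54532 genes. Fga and Fgb changed places between libraries, as did F7 with F9 and F5, so the order of those neighbours did not hold in every library. Differences in level between genes were not tested. The place of F7 above F9 and F5 came from controls 3 and 4: in all 3 MDL-800 libraries and in control 1 it was below both genes, and in control 2 it was below F9. Control 3 was the highest library for 8 of the 10, where it was the highest of the 7 for 15.8% of all genes tested, and no MDL-800 library was the highest for any member. F11 was highest in control 2 and Kng1 in control 4. The lowest value belonged to MDL-800 1 for 3 members, to MDL-800 3 for 2 and to control 2 for 5.

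The denominator behind FPKM mattered for where control 2 stood. Summed over the 10 genes, FPKM was 7763, 8810.1 and 8439 in the MDL-800 livers and 10121, 8049.6, 13793 and 10968 in the control livers, and control 2 lay inside the MDL-800 range. The authors' library total was not the sum of the reads in the table. The ratio of summed reads to that total was 1.06, 1.28 and 1.09 in MDL-800 livers 1 to 3. In control livers 1 to 4 it was 1.25, 0.995, 1.24 and 1.22, so control 2 was the lowest of all libraries and MDL-800 2 the highest. As a share of all recovered reads the 10 genes took 2.30%, 2.16% and 2.41% in MDL-800 and 2.49%, 2.51%, 3.37% and 2.77% in control, each with a 95% Wilson interval of at most 0.00844 percentage points on either side for counting error only. On this scale all 4 controls lay above all 3 MDL-800 libraries. The sum is mostly fibrinogen: the 3 chains alone took 1.52%, 1.43% and 1.65% in MDL-800 and 1.73%, 1.66%, 2.40% and 1.84% in control. F5 and F9 had log2 fold changes above 0 on this scale (0.066 and 0.023). How often sums of other genes separate in this way was not tested. Taken singly, 2 members, Fgg and Kng1, had all controls above all MDL-800 libraries. Of all genes, 1.47% were lower in MDL-800 without overlap. F7 no longer had this separation, with 124.2 CPM (reads scaled to the recovered total) in MDL-800 1 and 118.7 CPM in control 1. Fold changes with summed reads as the denominator were -0.38 for Fgg, -0.33 for Fga, -0.21 for Fgb and -0.45 for Kng1, the last with an unadjusted limma p of 0.0439 and an adjusted p of 0.726.

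**Figure D3:**
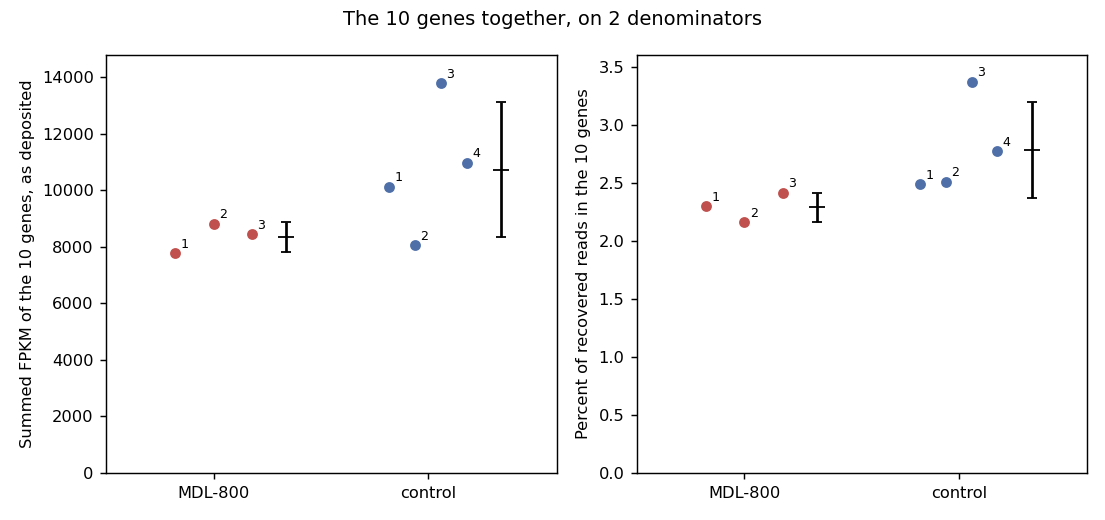
The 10 genes together in each library (points, numbered by replicate), MDL-800 left and control right, as summed deposited FPKM (left panel) and as percent of all recovered reads (right panel), with the mean and SD of each group (black bar) and axes from 0. Control 2 lies within the MDL-800 range on the left and above it on the right, where the MDL-800 libraries reach 2.41% and the controls start at 2.49%.

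The rest of the clotting system was taken from lists made with earlier results of these data known. Among the other coagulation factor genes 5 of 8 were tested, 0 passed, and 2 were above and 3 below 0, with a median of -0.064. F13b, the carrier subunit of the fibrin-crosslinking factor XIII, was at 126.1 ± 13.1 FPKM in MDL-800 (SD, n = 3) and 102.8 ± 19.2 FPKM in control (SD, n = 4) (log2 fold change 0.31), and F3 (tissue factor) and Klkb1 (prekallikrein) had 0.22 and -0.11. F8, Vwf and F13a1, made mainly by endothelial and blood cells, were under 1 FPKM in every library. Of 10 coagulation inhibitors and protein C system genes 8 were tested, 0 passed, and 6 were below 0, with a median of -0.16. Thbd (thrombomodulin), Proz (protein Z), Serpina10 (the protein Z-dependent inhibitor) and Pros1 (protein S) had log2 fold changes of -0.39, -0.30, -0.42 and -0.20, each with overlapping groups. Of 9 genes listed under fibrinolysis 6 were tested, 0 passed, and all 6 were below 0, with a median of -0.26. The 6 include the kininogen gene Kng2, whose split of reads with the member Kng1 is uncertain. Serpinf2, the plasmin inhibitor, was at 438.1 ± 23.1 FPKM in MDL-800 (SD, n = 3) and 560.2 ± 110 FPKM in control (SD, n = 4), the only gene of these lists whose groups did not overlap. Cpb2, which encodes the carboxypeptidase that slows fibrinolysis, and Hrg, histidine-rich glycoprotein, had -0.27 and -0.30.

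**Figure D4:**
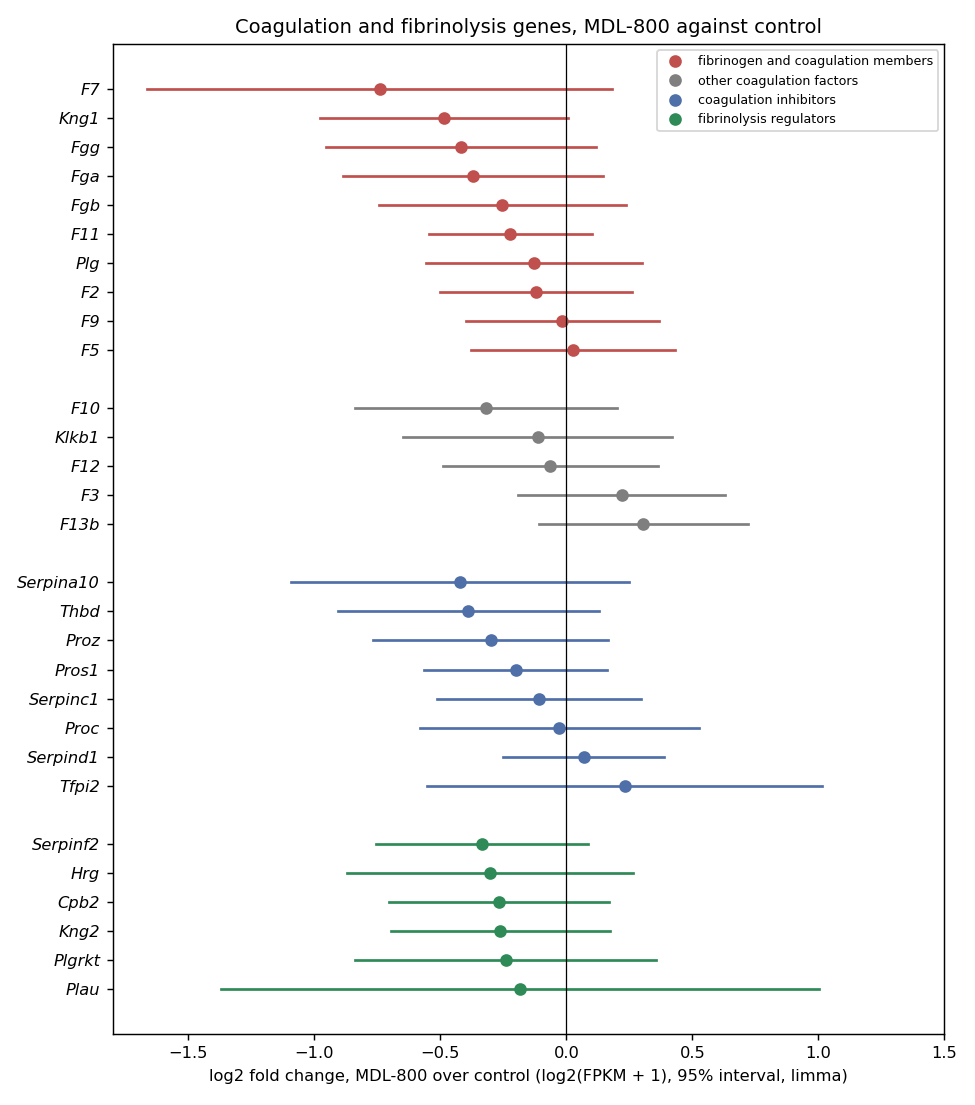
Log2 fold change, MDL-800 over control, with its 95% interval (limma on log2(FPKM + 1)), for the 10 genes and the tested genes of 3 further lists of the clotting system, ordered by value within each list. Every interval includes 0, from -1.67 to 0.18 for F7 and from -0.38 to 0.43 for F5.

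Genes of the vitamin K cycle and of factor secretion, on which the carboxylated factors (F2, F7, F9) and F5 depend, lay on both sides of 0. All 6 were tested, 0 passed, 3 were above and 3 below 0, and the median was -0.038. Ggcx, the gamma-glutamyl carboxylase, was at 17.2 ± 1.03 FPKM in MDL-800 (SD, n = 3) and 19.1 ± 2.84 FPKM in control (SD, n = 4), and Vkorc1, Vkorc1l1 (vitamin K epoxide reductases) and Furin (a propeptide-cutting protease) had log2 fold changes of -0.11, 0.15 and 0.24. Among 8 hepatocyte transcription factors of these genes 0 passed and 6 were below 0, with a median of -0.17. Stat3, Foxa2, Onecut1 and Cebpb had -0.28, -0.28, -0.69 and -0.45, and all 4 overlapped between groups. Onecut1 rested on 1.17 ± 0.542 FPKM in MDL-800 (SD, n = 3) and 3.03 ± 2.52 FPKM in control (SD, n = 4).

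Acute phase plasma protein genes outside coagulation were all below 0 (12 of 12), with a median of -0.67 and none past the limma threshold. This list was drawn up knowing that such genes were lower in these libraries. Neither its direction nor the counts that follow are independent evidence, also where they exceed the shares of all genes. Of the 12, 6 had an unadjusted limma p under 0.05 and 5 were lower in MDL-800 without overlap, against 4.85% and 2.42% of all genes. Saa1 (serum amyloid A), Orm1 (orosomucoid), Itih3 (an inter-alpha-trypsin inhibitor chain) and Fgl1 (a fibrinogen-like hepatokine) had log2 fold changes of -1.10, -1.19, -0.57 and -0.80, with no overlap between groups for any of the 4. Fgl1, the relative of the fibrinogen chains, was at 251.2 ± 66.1 FPKM in MDL-800 (SD, n = 3) and 440.2 ± 120 FPKM in control (SD, n = 4). The order of the control libraries differed between genes of this list. Crp, the C-reactive protein gene, was at 167.7, 191.2 and 173.4 FPKM in MDL-800 and at 173.1, 135.2, 266.2 and 201.8 FPKM in control, the same order of controls as for Fga, and Itih4 had that order too. Control 3, highest for all 3 chains, was the lowest control for Saa1 at 94.7 FPKM, and control 4 was the highest for Orm1 at 4715 FPKM.

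The 5 genes outside the members whose profile over the 7 libraries lay nearest to the mean of the 3 fibrinogen chains were Lrp1, Apon, Thpo, Spcs2 and Cpb2. Nearness is the Euclidean distance between log2(FPKM + 1) profiles centred on their means, and it was 0.14, 0.25, 0.25, 0.27 and 0.27, against 0.12 to 0.17 for the chains themselves, which are part of that mean. Lrp1 encodes a hepatic clearance receptor, Apon an apolipoprotein, Thpo thrombopoietin, the platelet growth factor, and Spcs2 a subunit of the signal peptidase. Thpo was at 5.55, 5.58 and 5.75 FPKM in MDL-800 and at 7.21, 5.67, 9.14 and 8.26 FPKM in control, with control 2 inside the MDL-800 range as for Fgg and Fga. The other members lay farther away, from 0.39 for F2 and 0.44 for Plg to 0.78 for F11 and 0.99 for F7.

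**Figure D5:**
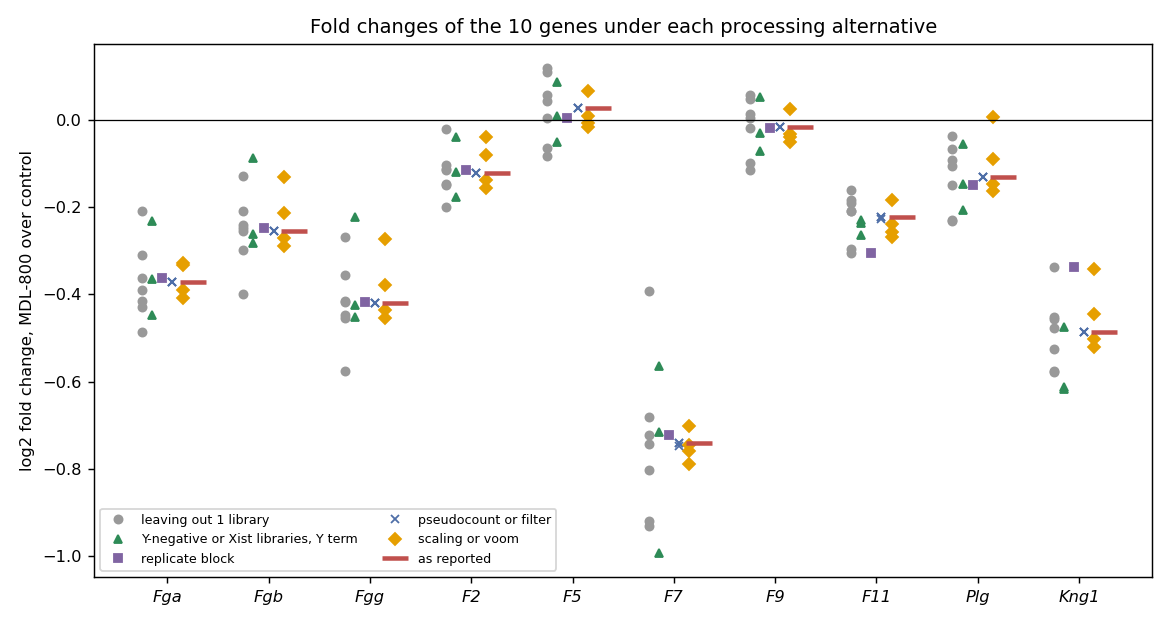
Log2 fold change, MDL-800 over control, of each of the 10 genes as reported (red bar) and under each of 18 processing alternatives (other symbols, by kind). F7 spans -0.99 to -0.39 and Kng1 -0.62 to -0.34, while F5, F9 and Plg cross 0.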

How the data were processed

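RNA of 7 liver libraries was analysed from 1 deposited table of FPKM values per gene. Lysates of the livers went directly into low-input cDNA synthesis (SMARTer), and the sheared cDNA into NEBNext library preparation, per the labels' protocols; neither step keeps strand. The submitters' processing notes name mm9 and 3 tools: Cufflinks 2.2.1, TopHat2 2.0.14 and Bowtie2 2.1.0. Coordinates are printed as GRCm38, since chromosome and start matched GENCODE M21 for 53756 of 54409 common identifiers. Whole reads were recovered by dividing the product of the deposited FPKM and gene length by the step worth 1 read in each library, which left every nonzero value (100%) within 0.01 of an integer. Intervals on shares of reads cover counting error only, since duplicates carry no molecular identifier. Values were tested as log2(FPKM + 1) with limma 3.58.1 in R 4.3.3 (lmFit, eBayes with trend, two-sided, Benjamini-Hochberg over all tested genes, threshold 0.05), so fold changes of low genes are understated. Alternatives were a pseudocount of 0.1, no filter, a mean of at least 5 FPKM, median scaling, quantile normalization, summed reads as the denominator, voom with trimmed-mean scaling on recovered reads, a replicate block, a term for Y-linked reads, Y-negative libraries alone and leaving out each library. Promoter sequences are RefSeq's. Members, lists and alternatives were chosen with earlier results of these data known. The rule for named genes took all members, the 4 lowest p of each further list, the 5 nearest profiles and the 2 most abundant markers of each marker list, of which those of hepatocytes are named. Crp, Itih4, Gp1bb, Alas2, Marco, Timd4, Gm34654, Cyp46a1, Xist and the Y-linked genes were chosen after their values were seen. So were the genes that overlap members, the levels of F8, Vwf and F13a1, and the alternative restricted to the 4 libraries with over 1000 Xist reads. A test of whether differences depended on Y-linked reads was also added then. Plots were drawn with matplotlib 3.10.9.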

Additional observations from a re-analysis of the deposited data

Results flagged for a closer look

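Control 2 lay far from the other 3 controls in 3 of 54 sets of control values examined (the members, their sums and ratios, the named genes and the summed marker lists). Chance gives about 5% of independent sets, but these sets share genes and libraries. The count of 3 therefore cannot be weighed against that share. The 3 were the summed markers of red blood cells (813.0 FPKM), neutrophils (300.8 FPKM) and platelets (68.1 FPKM), for which its gap to the nearest control was 91.2%, 92.2% and 85.4% of the controls' range. Fold changes of the fibrinogen chains without control 2 were -0.58 for Fgg, -0.49 for Fga and -0.40 for Fgb, against -0.42, -0.37 and -0.25 with it, and the part of blood cells in these values was not tested.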

How the results depend on the processing

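Of the 10 members, Fga, Fgb, Fgg, F2, F7, F11 and Kng1 kept a log2 fold change below 0 under all 18 alternatives, and no member passed limma under any of them. The members' median ran from -0.31 to -0.16, all below 0. F5 turned to -0.018 with quantile normalization, -0.0072 with voom and -0.052 in the Y-negative libraries, F9 to 0.023 with summed reads as the denominator and 0.053 in the 4 libraries with Xist, and Plg to 0.0051 with quantile normalization. When a library was left out, F5 ran from -0.083 to 0.12 and F9 from -0.12 to 0.057. The count of genes past the threshold ran from 0 to 1 in the same way: Gm34654 passed without MDL-800 1 and Cyp46a1 without control 1. Of the genes with an unadjusted p under 0.05, 185 were lower and 368 higher, against 146 and 630 with summed reads as the denominator and 264 and 247 without control 2. They numbered 274 when MDL-800 3 was left out and 948 when control 1 was. The replicate block leaves control 4 without a partner, and its fold changes, -0.34 for Kng1, -0.42 for Fgg and -0.72 for F7, are those without control 4. It gave 190 genes with an unadjusted p under 0.05, against 371 without control 4 and no block. The labels used here do not say whether equal numbers pair the libraries. The correlation of same-numbered deviations was -0.59, -0.55 and 0.057, which shows no pairing but cannot exclude one. For numbers 1 and 2, only 1 library of the pair held Y-linked reads. An interaction of group with Y-linked reads rested on 1 Y-positive library in each group, so its adjusted limma p of 0.9999 for each member does not show whether differences depended on those reads. With 3 against 4 libraries the intervals of F7, -1.67 to 0.18, and of the chains limit what could be detected, and counting error is small beside the spread between libraries.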
